A study of Homo sapiens with 3 samples.

Results

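Promoter capture Hi-C contacts of the calcineurin, NFAT and CaMKII genes were described in hESC-CMs, heart muscle cells made from human embryonic stem cells. The set had 10 genes, namely the calcineurin catalytic subunit genes PPP3CA, PPP3CB and PPP3CC, the inhibitor gene RCAN1, the transcription factor genes NFATC1, NFATC2, NFATC3 and NFATC4, and the kinase genes CAMK2D and CAMK2G. A promoter fragment was a HindIII fragment that the deposited calls list on the promoter side and that holds an annotated transcript start of a gene. By this rule 9 of the 10 genes had 12 promoter fragments, and these carried 140 of the 200809 contacts of the series. The calls list 19075 fragments on the promoter side. Values over all promoter fragments are over these 19075, with or without an annotated start. NFATC3 had no promoter fragment.

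In this assay DNA stretches near each other in a fixed nucleus are cut and joined, and the joined products with a promoter are enriched, so that each read pair links a promoter fragment to a partner fragment. There were 3 biological replicates, each of hESC-CMs from the single line WA09 (H9), an established embryonic stem cell line, with no genetic change and no group to compare against. The cells had been enriched in lactate medium without glucose and checked for MYH7 and TNNT2, which are genes of the cardiac contractile apparatus. A check of the cell type against marker expression was not possible from contact calls. A contact is scored by CHiCAGO for its excess of reads over the background at that distance, and the score has no unit. The 3 replicates held 112473, 109731 and 110740 contacts, with a lowest listed score of 5. A contact missing from a replicate was therefore not shown to be absent, and read depth was not analysed here. No test was made, since there was 1 condition, and values of all contacts are given only as a background.

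Calcineurin is a phosphatase that calcium-loaded calmodulin activates. It dephosphorylates NFAT proteins, which then enter the nucleus and bind DNA at sites with a GGAAA core, and RCAN1 binds calcineurin and inhibits it. CaMKII is a kinase that calmodulin activates in the same way, and in heart muscle both enzymes are known for their part in hypertrophic growth and calcium handling.

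To show the DNA behind the contacts, promoter sequences of RCAN1 and NFATC2 and a stretch of the partner fragments of NFATC1, NFATC2, CAMK2D and RCAN1 are printed 5′ to 3′ with each GGAAA, or TTTCC for the other strand, in capitals. The promoters are RefSeq windows placed on GRCh37 by exact match, read on the minus strand as the genes are, and partners are on the plus strand of GRCh37. The RCAN1 promoter of the long transcripts is at chr21:35987413-35987662, ahead of the gene. The RCAN1 promoter inside the gene is at chr21:35899262-35899370, ahead of the short transcripts, and is shown because its window held the most GGAAA cores. The NFATC2 promoter is at chr20:50179379-50179628. The NFATC1 partner stretch at chr18:77413634-77413933 lies between NFATC1 and CTDP1, that of NFATC2 at chr20:50027260-50027559 in an NFATC2 intron, that of CAMK2D at chr4:115300664-115300963 between ARSJ and UGT8, and that of RCAN1 at chr21:35818691-35818985 just past the 3′ end of KCNE1. Each partner stretch is from a fragment called in all 3 replicates.
RCAN1 promoter of the long transcripts: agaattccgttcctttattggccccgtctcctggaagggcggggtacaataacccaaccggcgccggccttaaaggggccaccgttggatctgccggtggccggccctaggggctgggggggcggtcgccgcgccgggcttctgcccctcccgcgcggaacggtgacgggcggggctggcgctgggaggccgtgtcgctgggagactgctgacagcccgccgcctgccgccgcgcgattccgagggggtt
RCAN1 promoter inside the gene: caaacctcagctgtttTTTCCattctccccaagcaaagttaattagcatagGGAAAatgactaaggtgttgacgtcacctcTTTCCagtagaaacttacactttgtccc
NFATC2 promoter: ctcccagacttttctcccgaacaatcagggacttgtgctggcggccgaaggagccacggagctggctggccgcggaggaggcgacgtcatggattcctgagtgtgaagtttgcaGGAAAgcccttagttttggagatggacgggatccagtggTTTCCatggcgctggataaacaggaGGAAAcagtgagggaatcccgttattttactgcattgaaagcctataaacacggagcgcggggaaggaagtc
NFATC1 partner: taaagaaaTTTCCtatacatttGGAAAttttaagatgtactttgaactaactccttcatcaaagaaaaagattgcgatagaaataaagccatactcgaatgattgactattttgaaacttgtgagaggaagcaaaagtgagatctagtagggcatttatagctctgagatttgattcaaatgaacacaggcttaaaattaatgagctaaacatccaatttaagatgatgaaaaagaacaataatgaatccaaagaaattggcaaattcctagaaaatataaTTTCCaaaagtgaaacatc
NFATC2 partner: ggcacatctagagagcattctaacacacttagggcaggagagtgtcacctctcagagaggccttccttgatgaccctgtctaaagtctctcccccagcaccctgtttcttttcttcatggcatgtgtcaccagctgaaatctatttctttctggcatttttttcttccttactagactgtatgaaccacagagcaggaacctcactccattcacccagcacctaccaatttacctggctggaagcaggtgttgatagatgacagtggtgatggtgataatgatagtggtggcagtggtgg
CAMK2D partner: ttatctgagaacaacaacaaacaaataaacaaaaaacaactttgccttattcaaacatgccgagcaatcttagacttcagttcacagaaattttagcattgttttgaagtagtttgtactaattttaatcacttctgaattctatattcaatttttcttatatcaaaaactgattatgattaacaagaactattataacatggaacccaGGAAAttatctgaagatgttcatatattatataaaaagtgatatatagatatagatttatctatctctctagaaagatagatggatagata
RCAN1 partner: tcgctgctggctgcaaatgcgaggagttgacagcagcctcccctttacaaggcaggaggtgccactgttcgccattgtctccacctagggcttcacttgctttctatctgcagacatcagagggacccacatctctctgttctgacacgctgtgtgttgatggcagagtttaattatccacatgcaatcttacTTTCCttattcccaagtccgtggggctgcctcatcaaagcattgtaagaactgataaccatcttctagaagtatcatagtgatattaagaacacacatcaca

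The printed RCAN1 promoter of the long transcripts held no GGAAA core and 3 copies of GGGCGG, the GC box that Sp factors bind. The printed stretch inside RCAN1 held 3 GGAAA cores and no GC box. Its 2 matches to TGACG, the core of the cyclic AMP response element, were the 2 strands of 1 site, tgacgtca. The NFATC2 promoter held 3 GGAAA cores. Among the partner stretches, that of NFATC1 held 3 cores, those of CAMK2D and RCAN1 held 1 each and that of NFATC2 held none. Over the 16 RefSeq windows of 300 bases that could be placed for 7 of the genes, 7 held GGAAA on either strand, against 61.2% of 35116 RefSeq promoters. GGGCGG was found in 10 of the 16 windows, against 45.0% of all promoters, and TGACG in 8, against 24.6%. In the central 300 bases of the 109779 partner fragments of the series that were that long, GGAAA was present in 64.0%, GGGCGG in 5.00% and TGACG in 7.59%. Matches on both strands were counted with overlaps allowed, and a match is a description of the letters. PPP3CA, PPP3CB and PPP3CC were not among the windows.

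All 3 replicates called 32 of the 140 contacts of the set, while 31 were found in 2 replicates and 77 in 1. That is 22.9% in all 3, with a 95% Wilson interval of 16.7 to 30.5% that covers counting error only, and the background over all contacts was 23.9%. Seen from each replicate, 42.7% of the 75 calls of replicate 1, 41.6% of the 77 calls of replicate 2 and 38.6% of the 83 calls of replicate 3 were shared by all 3, with a mean of 40.9% ± 2.13 (SD, n = 3). Over all contacts that mean was 43.3% ± 0.539 (SD, n = 3). Pooled over all distances, the set was thus close to the background in how often a contact recurred. The set had shorter contacts than the series, so the pooled shares do not compare like distances. By distance, as given below, the shares were near each other under 300 kb. From 300 kb to 1 Mb they were 12.0% in the set against 30.0%, and from 1 to 2 Mb 0% against 18.7%, which was not tested. At least 1 contact in all 3 replicates was found for 8 of the 12 promoter fragments, against a background of 51.8% of promoter fragments, and for 8 of the 9 genes, against 55.8% of protein-coding genes with a promoter fragment. Member promoter fragments had a median of 13 partners, against 6 over all promoter fragments, but ranged from 1 to 28. That of NFATC1 and 1 of RCAN1 had 6 each, and 2 of CAMK2G had 3 and 1.

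By role, the catalytic subunit genes had 37 contacts with 14 in all 3 replicates, RCAN1 had 24 with 3, the NFATC genes had 47 with 11, and the CaMKII genes had 32 with 4. PPP3CC and NFATC4 held 16 of the 32 contacts called in all 3 replicates, and the share over the other genes was 16.7%. The mean number of partners per replicate was highest for NFATC4, at 15.7 ± 2.52 (SD, n = 3), followed by PPP3CC at 12.0 ± 1.00, RCAN1 at 11.3 ± 4.04 and CAMK2D at 10.0 ± 3.61. PPP3CB had 7.67 ± 0.577, CAMK2G 7.67 ± 4.04, NFATC2 7.00 ± 3.61, NFATC1 3.67 ± 1.15 and PPP3CA 3.33 ± 0.577. Each neighbouring pair in this order had overlapping counts, and so did many pairs further apart, while the counts of NFATC4 and PPP3CA did not overlap.

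**Figure D1:**
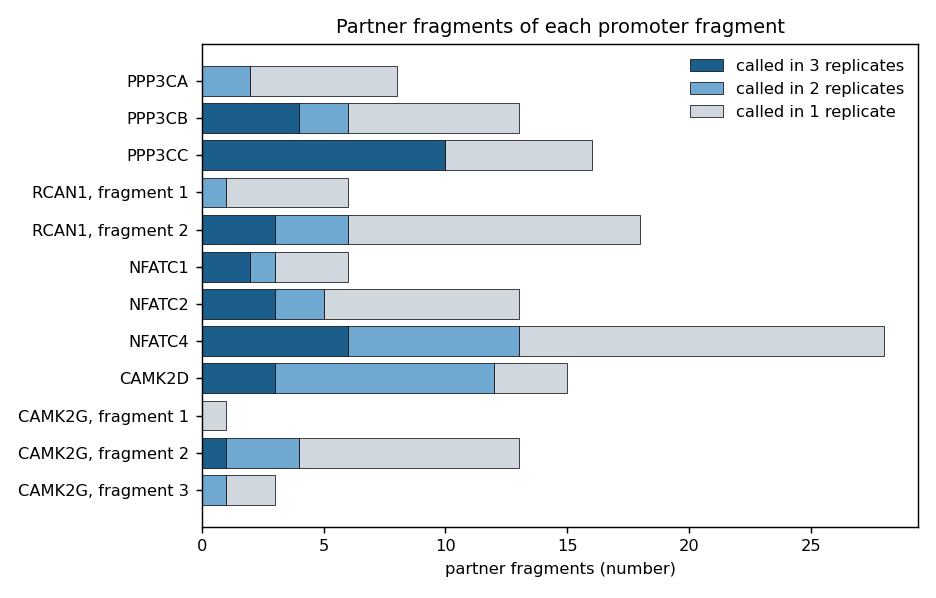
Partner fragments (number) of each of the 12 promoter fragments, with bar segments for contacts called in 3, 2 or 1 replicates; fragments of 1 gene are numbered in genome order. PPP3CC had 10 partners called in all 3 replicates and NFATC4 had 6, while PPP3CA and the fragment with most CAMK2G starts had none.

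PPP3CA, the gene of the alpha catalytic subunit, had no contact in all 3 replicates. Its promoter fragment at chr4:102266031-102271795, which also holds a start of FLJ20021, had 4, 3 and 3 partners in replicates 1, 2 and 3, and 8 in all. The highest scores were with the start of SLC39A8, a metal ion transporter gene 1085 kb upstream, at 14.19 in replicate 1 and 14.25 in replicate 3, with no call in replicate 2. The start of BDH2, a dehydrogenase gene 1753 kb upstream, was called at 7.51 in replicate 1 and 8.08 in replicate 2. The other 6 partners were each called in 1 replicate. PPP3CA partners were far from the promoter, with a median distance of 1169 kb, and 5 of the 8 lay over 1 Mb away. The calls on merged replicates gave 16 contacts of this fragment.

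PPP3CB, the gene of the beta catalytic subunit, had 4 contacts in all 3 replicates, each downstream of its promoter fragment at chr10:75254692-75259839. The fragment gave 7, 8 and 8 partners in the 3 replicates, 13 in all. The start of ANXA7, an annexin gene 85.0 kb away, scored 7.42, 7.32 and 8.03. The other contacts lay in CFAP70, a gene of the axoneme, where the fragment at chr10:75038794-75043777 scored 5.77, 6.71 and 9.03, that at chr10:75023686-75027556 scored 5.75, 6.01 and 7.37, and that at chr10:75027557-75029946 scored 5.17, 5.16 and 5.23. The 3 scores of the last are near the lowest score listed. These CFAP70 fragments belong to a block of 9 partners over 37.9 kb, centred 232 kb from the promoter, of which 5, 5 and 7 were called in the 3 replicates.

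PPP3CC, the gene of the gamma catalytic subunit, had the most contacts in all 3 replicates of the set, 10 of 16, and they formed 1 block of fragments at most 10 kb apart. The promoter fragment at chr8:22287507-22300576 had 12, 13 and 11 partners, and each of the 10 fragments of the block was called in every replicate. The block spanned 73.1 kb at chr8:22386602-22459661, centred 129 kb downstream, and ran from the last part of PPP3CC itself through SORBS3, the gene of the focal adhesion adaptor vinexin, into PDLIM2 and, at its far end, the start of C8orf58 with 8.27, 7.02 and 8.87. The highest score was at chr8:22431750-22432006, a fragment of 257 bp without an exon in SORBS3, with 13.68, 13.52 and 13.05 and a mean of 13.4 ± 0.328 (SD, n = 3). The SORBS3 fragment at chr8:22407443-22407660 scored 9.84, 8.93 and 8.57, and that at chr8:22421325-22431749, which holds a SORBS3 start, scored 8.98, 8.38 and 9.98. The 6 contacts outside the block were each called in 1 replicate, among them fragments of TNKS and MFHAS1 at 12802 and 13547 kb upstream. Of the 16 partners, 9 were called for no other promoter fragment.

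RCAN1, the gene of the calcineurin inhibitor, had 2 promoter fragments, which shared 3 partners. The fragment of the long transcripts at chr21:35986007-35994905 had 11, 5 and 11 partners, 18 in all, with 3 in all 3 replicates. The start of SMIM34 at chr21:35793033-35803608 scored 7.97, 8.57 and 7.89, the fragment between SMIM34 and KCNE1 at chr21:35812284-35813891 scored 6.43, 7.76 and 8.23, and the fragment at the 3′ end of KCNE1 at chr21:35813892-35819107 scored 6.70, 5.41 and 5.35. KCNE1 encodes a subunit of a cardiac potassium channel. These fragments lay in a block of 6 partners over 35.6 kb, 180 kb downstream, with 5, 3 and 5 of them called in the 3 replicates. The fragment at the 3′ end of KCNE1 was called for no other promoter fragment, and 417 bp of it overlapped the human counterpart of the VISTA element mm768, whose stretch is the RCAN1 partner printed above. That element was paired with this promoter on the same calls, so the overlap is not an independent observation.

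The other RCAN1 promoter fragment, at chr21:35882910-35897089, also holds KCNE1 starts and had 1, 2 and 4 partners, 6 in all, with none in all 3 replicates. Over 1 Mb upstream, in or near RUNX1, SETD4 and CBR1, lay 5 of these 6 partners and 10 of the 18 of the long-transcript fragment, and none of them was called in all 3 replicates. Both fragments called the same 3 fragments of that stretch, but mostly in different replicates. The CBR1 start was called from the KCNE1-side fragment in replicate 3 at 7.39 and from the long-transcript fragment in replicate 2 at 5.26, and a SETD4 fragment at chr21:37425641-37426622 was called from both in replicate 1, at 6.09 and 8.53. Of the 14 annotated RCAN1 starts, 4 lie on the KCNE1-side fragment. The short-transcript start whose promoter is printed above lies on chr21:35897090-35900444, which holds 4 starts. That fragment appeared in no call, and a fragment that was not captured cannot be told apart from a captured one with no call.

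**Figure D2:**
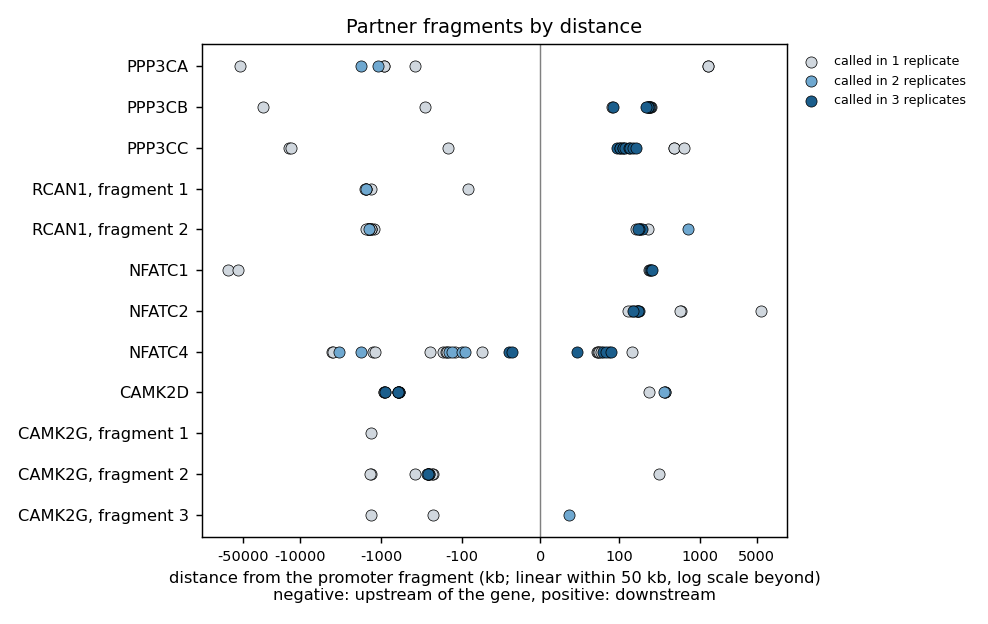
Partner fragments on the same chromosome by distance (kb, linear within 50 kb and on a log scale beyond) from each promoter fragment, with upstream distances negative and the colour giving the number of replicates. Contacts called in all 3 replicates lay within 892 kb, and those of CAMK2D and CAMK2G were upstream.

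NFATC1, the gene of an NFAT factor known for its part in heart valve formation, had 2 contacts in all 3 replicates, both in the stretch between its own 3′ end and CTDP1. Its promoter fragment at chr18:77153598-77162557 holds 12 of the 18 annotated starts and had 3, 5 and 3 partners, 6 in all. The fragment at chr18:77413445-77414121, 256 kb downstream, scored 9.68, 7.92 and 10.39, with a mean of 9.33 ± 1.27 (SD, n = 3). Its neighbour at chr18:77407574-77410026 scored 6.06, 5.54 and 5.43. Together with 2 further fragments they made a block of 20.8 kb with 3 of its 4 fragments called in each replicate. No fragment of the block was called for any other promoter fragment of the series. The remaining 2 partners lay 76497 and 57885 kb away and were called in replicate 2 alone, at 5.17 and 5.41. Without replicate 2 the gene had 3 partners.

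NFATC2, which encodes an NFAT factor also found in lymphocytes, contacted mostly its own gene body. The promoter fragment at chr20:50173618-50181969 had 4, 11 and 6 partners, 13 in all, and 9 of them lay within NFATC2 toward its 3′ end. The 3 called in all 3 replicates were chr20:50006297-50007345 with 6.66, 8.4 and 6.96, chr20:50003883-50006296 with 6.52, 8.09 and 6.14, and the intronic chr20:50026977-50027842 with 6.75, 6.83 and 6.30. Replicate 2 was the highest at each of them and called all 9 fragments of the gene body, while replicates 1 and 3 each called 4. Without replicate 2 the gene had 7 partners. Of the 13 partners, 12 were called for no other promoter fragment. The single contact of the set with another chromosome was that of NFATC2 with BICRAL on chromosome 6, called in replicate 3 at 6.65.

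NFATC3 had no promoter fragment, although 22 transcript starts are annotated on 2 HindIII fragments. The fragment with 21 of them, chr16:68114402-68123163, was listed as a partner of 1 promoter fragment, chr16:68262534-68280544, which holds starts of ESRP2, a splicing regulator gene, and PLA2G15, a lysosomal phospholipase gene. The scores were 7.04 in replicate 1 and 5.53 in replicate 3, with no call in replicate 2. The distance was 153 kb.

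NFATC4 had the highest scores of the set and the most partners. Its promoter fragment at chr14:24829975-24835214 holds 1 of 33 annotated starts, that of a transcript not annotated as protein-coding, and had 16, 13 and 18 partners, 28 in all. The start fragments of CBLN3 and KHNYN scored highest, with 35.63, 34.09 and 34.02 at chr14:24894613-24899591, a mean of 34.6 ± 0.910 (SD, n = 3), and with 32.62, 26.82 and 29.50 at chr14:24899592-24905840. KHNYN encodes a cofactor of antiviral RNA decay. On the other side, the start of RIPK3, a kinase gene of necroptosis, scored 18.07, 15.95 and 17.76. The starts of NYNRIN with 13.40, 12.37 and 9.70, of SDR39U1 with 13.99, 11.44 and 8.35, and of ADCY4, an adenylyl cyclase gene, with 13.45, 11.82 and 7.63 were the other contacts in all 3 replicates. Replicate 1 was the highest and replicate 3 the lowest at these last 3, and each contact in all 3 lay within 79.1 kb. Starts of other protein-coding genes were present on 23 of the 28 partners.

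The fragment next to it, chr14:24835215-24842923, holds 28 of the NFATC4 starts but was listed as a partner alone. The same CBLN3 and KHNYN fragments called it in all 3 replicates, at 5.33, 5.99 and 5.57 for chr14:24894613-24899591 and at 6.77, 7.12 and 10.92 for chr14:24899592-24905840. The SDR39U1 fragment called it in replicate 2 at 5.04. Contacts of the promoter fragment to the same CBLN3 and KHNYN fragments thus scored higher than those of the fragment with most NFATC4 starts. The scores of the 3 replicates did not overlap. These pairs are not alike, since the first joined promoter fragments at both ends, while the fragment with most starts was never on the promoter side. In the calls on merged replicates the NFATC4 promoter fragment had 7 contacts, against 28 in the union of the replicates, and with starts of protein-coding transcripts alone the gene had no promoter fragment and 0 contacts.

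**Figure D3:**
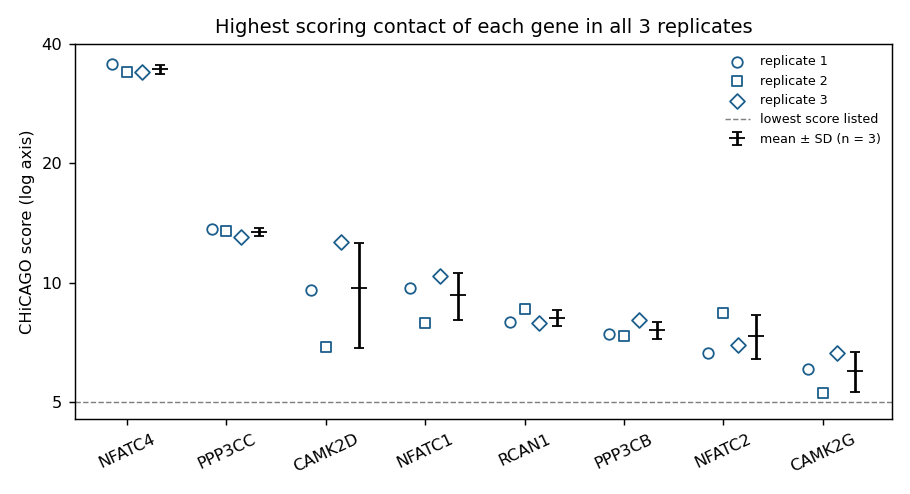
CHiCAGO scores (log axis) of the highest scoring contact called in all 3 replicates for each of 8 genes, with replicates as separate points and the mean ± SD (n = 3) beside them. NFATC4 stood at 34.6 and PPP3CC at 13.4, and the other 6 genes lay between 5.99 and 9.70; PPP3CA and NFATC3 had no such contact.

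CAMK2D, the gene of the delta subunit that predominates in heart muscle, had its contacts in all 3 replicates far upstream. Its promoter fragment at chr4:114680487-114695186 holds 35 of 38 starts and had 7, 14 and 9 partners, 15 in all. The fragment at chr4:115300107-115301520, 613 kb away between the sulfatase gene ARSJ and UGT8, scored 9.59, 6.88 and 12.63, and its neighbour at chr4:115299680-115300106 scored 6.65, 8.64 and 7.74. An intronic fragment of UGT8 at chr4:115577534-115581301, 892 kb away, scored 7.63, 7.48 and 6.70. The first 2 lie in a block of 7 partners over 18.1 kb, of which 3, 7 and 6 were called in the 3 replicates, and each fragment of the block was also called for the ARSJ promoter. The highest score of the block, at chr4:115301521-115301978, was 18.64 in replicate 2 and 13.55 in replicate 3, with no call in replicate 1. On the downstream side, 3 fragments between CAMK2D and ANK2, the gene of ankyrin-B, were each called in 2 replicates, with scores from 5.10 to 8.14.

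CAMK2G, the gene of the gamma subunit, had 3 promoter fragments and 1 contact in all 3 replicates. The fragment with 19 of its 27 starts, chr10:75630008-75639708, had 1, 2 and 1 partners, with none in all 3. The fragment at chr10:75600204-75605605 holds the start of 1 CAMK2G transcript not annotated as protein-coding and of a long non-coding RNA gene, and had 8, 1 and 9 partners, 13 in all. The single contact in all 3 replicates was from that fragment, 261 kb upstream in VCL, the gene of the focal adhesion protein vinculin, at chr10:75863508-75864661 with 6.05, 5.27 and 6.65. It was 1 of a block of 7 VCL partners over 10.9 kb, of which 5 were called in replicate 1, 1 in replicate 2 and 6 in replicate 3. The start of VDAC2, a channel gene of the mitochondrial outer membrane 1370 kb upstream, scored 17.54 from the same promoter fragment in replicate 3 and was not called from it in replicates 1 and 2. From the fragment with 19 starts the VDAC2 start was called in replicate 2 alone, at 5.83. The fragment at chr10:75570547-75580066, shared with NDST2, had 1 contact, in replicate 1 at 5.39. With starts of protein-coding transcripts alone the gene had 3 contacts in place of 17, without replicate 1 it had 11, and the merged calls gave 28.

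**Figure D4:**
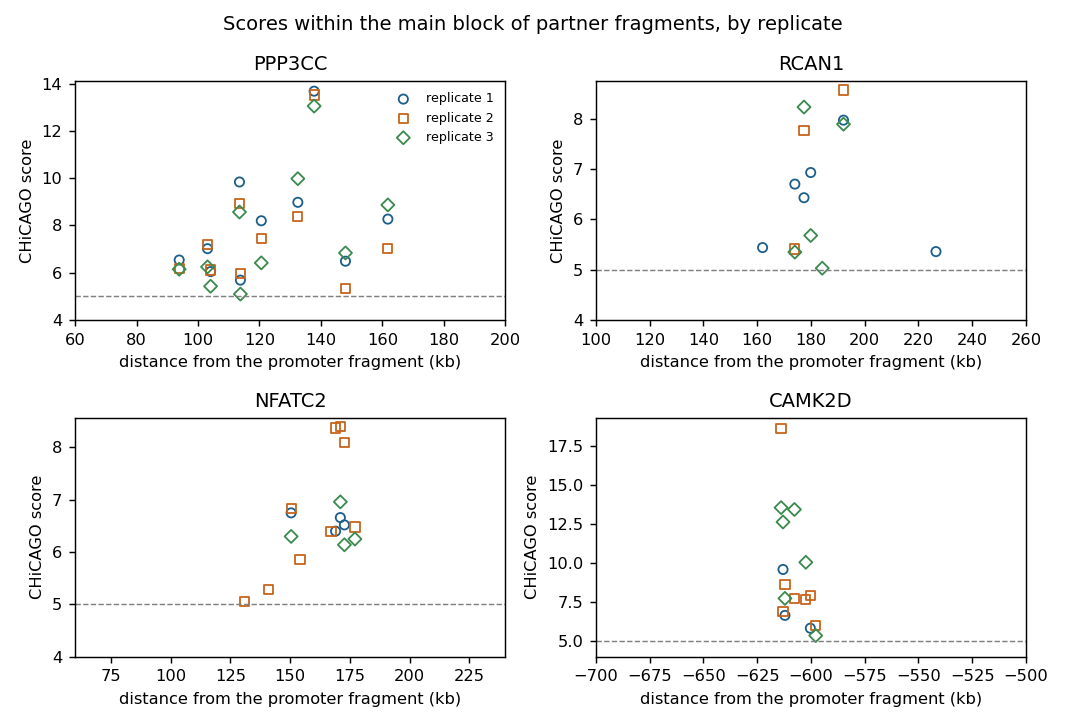
CHiCAGO scores by replicate against distance from the promoter fragment (kb, negative upstream) in the blocks of PPP3CC, RCAN1 (long transcripts), NFATC2 and CAMK2D; the dashed line is the lowest score listed. PPP3CC had 3 points at each fragment, while in the CAMK2D block replicate 1 was called at 3 of the 7 fragments and at NFATC2 replicate 2 gave the most points.

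PPP3CB and CAMK2G are neighbours on chromosome 10, with 318 kb between the PPP3CB promoter fragment and the nearest of CAMK2G and 378 kb to the one with most starts. The calls held 0 contacts between them and 0 shared partners, and no promoter fragment of the set contacted another. MYOZ1, the gene of calsarcin-2, a Z-disc protein that binds calcineurin, lies between them. Its promoter fragment at chr10:75385941-75405997 shared the partners chr10:75005911-75006077 and chr10:75038794-75043777 with PPP3CB, at 5.09 and 5.05 in replicate 3 alone. It shared chr10:75291397-75293601 in USP54 with CAMK2G, and scored 8.68, 5.40 and 7.13 there, while CAMK2G scored 5.13 in replicate 1 alone. Such sharing was not particular to MYOZ1. In genome order these partners were paired with 4, 8 and 8 promoter fragments of the series, with SYNPO2L or USP54 among the genes at each.

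Pooled over its genes, the set had shorter contacts than the series, but the genes differed. Median distances were 112 kb for NFATC4 and 143 kb for PPP3CC, but 1169 kb for PPP3CA and 1528 and 1266 kb for the RCAN1 fragments. The median distance of the set was 256 kb, against 716 kb over all contacts, and among those called in all 3 replicates 149 kb, against 396 kb. Below 100 kb, 44.4% of the 18 contacts of the set were in all 3 replicates, against 42.1% of all contacts, and from 100 to 300 kb 35.0% of 60, against 38.9%. From 300 kb to 1 Mb the shares were 12.0% of 25 and 30.0%. Over 1 Mb, 0 of 36 contacts of the set were in all 3, which allows a share of up to 8.33% from counting error alone, while the series had 18.7% from 1 to 2 Mb and 7.63% beyond 2 Mb. Contacts of 1 promoter fragment are not independent of each other, and these differences were not tested.

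Partners with the start of another protein-coding gene made up 28.6% of the contacts of the set, against 14.8% over all promoter fragments of protein-coding genes, and 23 of these 40 contacts were those of NFATC4. Partners within the gene's own body made up 10.7%, against 5.24%, and 9 of the 15 were those of NFATC2. Fragments between protein-coding genes made up 20.0%, against 40.4%. For these shares and the upstream or downstream ones below, set contacts were counted with the promoter fragment in either place of the pair. In 16 of the 140 it was listed as the partner, and the other fragment was then itself a promoter fragment. The background counted each pair from its promoter fragment alone, so the compared shares were not counted alike. Over the same-chromosome contacts of the union, 66 of the set lay downstream of the promoter, 47.5% against 51.0%. Of the contacts in all 3 replicates, 26 of 32 lay downstream, 81.2% against 52.1%, and without PPP3CC 16 of 22, or 72.7%, so the set was below the series in the union and above it in all 3. Partners called for 1 promoter fragment of the series made up 31.4% of the contacts of the set in the union, against 36.9%, and 43.8% of those in all 3 replicates, against 24.1%. The median score in all 3 replicates was 7.42, against 8.31.

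**Figure D5:**
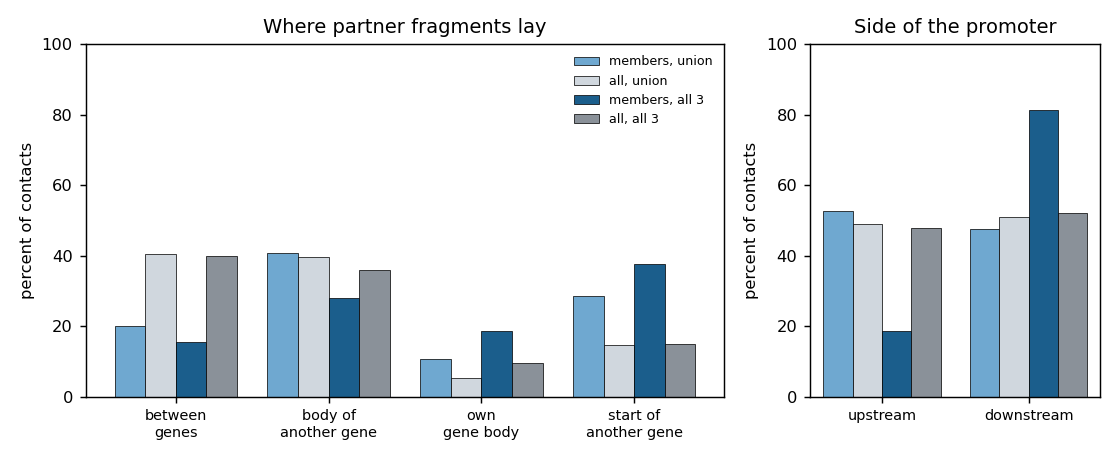
Percent of contacts by what the partner fragment held (left) and by side of the promoter (right), for the set and for all contacts, in the union of replicates and in all 3 replicates. The set had 28.6% of its contacts at starts of other genes, against 14.8%, and downstream contacts made up 47.5% in the union, against 51.0%, and 81.2% in all 3 replicates, against 52.1%. Set contacts were counted with the promoter fragment in either place of the pair, those of the background from the promoter fragment alone.

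A further list of 37 genes of the same pathway was read in the same way. It covered the regulatory subunits, anchors and inhibitors of calcineurin, calmodulin, other CaM kinases and their inhibitors, kinases that act on NFAT, class IIa histone deacetylases and TRPC channels. A promoter fragment was present for 34, and 24 of these had a contact in all 3 replicates, 70.6% with a 95% Wilson interval of 53.8 to 83.2%, against 55.8% of protein-coding genes. Among the 24, HDAC5 had its only such contact with another chromosome, at 121.34, 183.69 and 101.38. Its mean was the highest among the top contacts of the list. RCAN3, AKAP6 and CAMKK2 had no promoter fragment. The 10 genes with no contact in all 3 replicates were PPP3R1, CABIN1, AKAP5, CAMK2A, CAMK1, CAMK4, CAMKK1, DYRK1A, HDAC4 and HDAC7. PPP3R2, the testis form of the regulatory subunit, had the most, 106 of its 213 contacts. MYOZ2, which encodes the calsarcin of heart and slow muscle, followed with 28 of 105, led by a SYNPO2 fragment at 13.02, 15.12 and 16.10.

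Of genes for calmodulin, the activator of both enzymes, CALM2 had 14 of its 25 contacts in all 3 replicates and CALM3 had 1 of 8. CAMK2N1, an inhibitor gene of CaMKII, had 14 of 24, and the NFAT-related NFAT5 had 3 of 8. The calcium channel gene TRPC1 contacted the start of PLS1 at 37.60, 35.61 and 35.10. The regulatory subunit gene PPP3R1 had 4 contacts with none in all 3 replicates, as PPP3CA had none of 8, whereas PPP3CC had 10 of 16.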

How the data were processed

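The deposited contact calls were used for each of the 3 hESC-CM replicates, with those of the merged data as an alternative. Each line pairs a promoter fragment and a partner fragment with a CHiCAGO score. Per the paper's methods the authors mapped reads with HiCUP and computed each deposited score with CHiCAGO at default parameters, and the labels give GRCh37. No score was recomputed. Scores are listed from 5, depth was not analysed here, and n = 3 limits the precision. All 127138 fragments of the replicates ended at HindIII sites or chromosome ends of GRCh37.

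Genes came from GENCODE release 44 mapped to GRCh37. Contacts were ordered pairs over the union of the replicates, matched by exact coordinates, with distances between fragment midpoints. Partners of 1 promoter fragment at most 10 kb apart formed a block. Intervals are 95% Wilson intervals. Promoter sequences came from RefSeq (GRCh38.p14 table), 250 bases before to 50 after each start, and were placed on GRCh37 by exact match, and stretches over annotated exons were left out where printed. Counting was tested on simulated data. Python 3.11.15 with numpy 2.4.6, scipy 1.17.1 and matplotlib 3.10.9 was used.

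Genes named were the 10 of the set, the 3 highest scoring and the farthest contact in all 3 replicates of each promoter fragment with the genes there, genes with a start on such partners, and the pathway genes with most and fewest contacts. Other genes, and contacts called in fewer replicates, were named after their values were seen. The genes, lists and comparisons were chosen with earlier results of these data known. Alternatives were scores of at least 7 and 10, each replicate left out, merged calls, pairs without order, the promoter side alone, starts of protein-coding transcripts, contacts within 1 Mb, matching within 5 kb and gene bodies extended by 5 kb.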

Additional observations from a re-analysis of the deposited data

How the results depend on the processing

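At a score of at least 7 the set had 50 contacts, a median of 6 partners per gene, 26% in all 3 replicates and a median distance in all 3 of 85.0 kb. At a score of at least 10 these were 12 contacts, 2.5 partners, 33.3% and 67.3 kb, the share within the own gene body was 0% and the share of pathway genes with a contact in all 3 was 50%. A promoter fragment there had to be on the promoter side of a remaining call. The 2.5 and the 50% are over genes that kept one, in the set PPP3CC, NFATC1, NFATC4 and CAMK2D. Left out by this rule were the contacts of PPP3CA with SLC39A8, at 14.19 and 14.25, and of CAMK2G with VDAC2, at 17.54. Leaving out 1 replicate, and asking for both of the others, gave a share of 34.5 to 39.8% and a median distance of 169 to 174 kb, as fewer replicates had to call a contact. With matching within 5 kb the share was 45.0%, within 1 Mb it was 31.1%, and with starts of protein-coding transcripts it was 25.5%, with a median distance of 171 kb. That distance was 144 kb with the promoter fragment on the promoter side alone. Merged calls gave 17.9% within the own gene body and a median of 12.5 for the highest score of each gene. The cause of these differences was not tested, apart from the stated changes of rule. The 0 contacts and shared partners of PPP3CB and CAMK2G stayed at 0 in the merged calls. The other alternatives run could add no contact, so their 0 was fixed in advance. Of 167 recomputed values of single genes, 35 changed by more than 1.5 times in a count or by more than 1 SD in a score, with 9 of these at a score of at least 7, 9 at a score of at least 10 and 10 in the merged calls. The 167 leave out each highest scoring contact that an alternative removed, so these counts understate the change. At a score of at least 7 those of CAMK2D, CAMK2G and NFATC2 were removed. At a score of at least 10 only those of NFATC4 and PPP3CC remained. Merged calls have no replicates and gave no share in all 3.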
